A study of Homo sapiens with 2 samples.

Results

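A set of 10 genes, of 16387 counted in both libraries, was followed across every condition of an experiment in which epithelial cells received EGF and then an inhibitor of MEK or PI3K. They were PCDH9, GPR1, VAV3, CA2, BEST2, IGFL2-AS1, LRP1, NEURL1B, PIF1 and GMPR, and they were chosen by name as genes raised by MEK inhibition. The cells were MCF10A, a human mammary epithelial line that is immortal but forms no tumours and depends on EGF for growth. The groups were, in order of time, unstimulated cells (0 h), cells after 15 h of EGF, cells at 20 h and 30 h of EGF with a MEK inhibitor added at 15 h, cells at 20 h and 30 h of EGF with a PI3K inhibitor added at 15 h, and cells at 20 h and 30 h of EGF alone. These 8 conditions were tagged, pooled and sequenced together in each of 2 biological replicates, so a value per condition comes as 1 from library 1 and 1 from library 2, and n = 2 throughout. The sources used here do not give the names or doses of the inhibitors, and all cells come from 1 line.

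EGF binds its receptor and signals through RAS and RAF to MEK, the kinase that activates ERK, and in parallel through PI3K, the lipid kinase upstream of AKT. ERK activity induces transcription factors of the FOS and JUN family and cyclin D1, which carries epithelial cells from G1 into S phase. In stratified epithelia, ERK signalling is known to hold back parts of the differentiation programme. The 10 genes have unlike products. PCDH9 is a protocadherin, GPR1 a receptor for chemerin and LRP1 a large endocytic receptor, all at the cell surface. VAV3 is a guanine nucleotide exchange factor, and NEURL1B is a ubiquitin ligase that acts on Notch ligands. CA2 is a cytosolic carbonic anhydrase, BEST2 a calcium-activated anion channel and GMPR the reductase that converts GMP to IMP. PIF1 is a DNA helicase with roles at telomeres and replication forks, and IGFL2-AS1 is a long non-coding RNA.

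The regions just upstream of the starts of 4 genes are shown because their letters hold motifs that were searched for, and because NEURL1B and PIF1 were counted mostly in cells called G2/M. Each is the 250 bases before the RefSeq start on GRCh38.p14, written along the gene's own strand, and capitals mark a motif match on either strand. The NEURL1B region is chr5:172641013-172641262 on the plus strand. The PIF1, GPR1 and VAV3 regions are chr15:64825648-64825897, chr2:206213372-206213621 and chr1:107688500-107688749, all on the minus strand.
NEURL1B: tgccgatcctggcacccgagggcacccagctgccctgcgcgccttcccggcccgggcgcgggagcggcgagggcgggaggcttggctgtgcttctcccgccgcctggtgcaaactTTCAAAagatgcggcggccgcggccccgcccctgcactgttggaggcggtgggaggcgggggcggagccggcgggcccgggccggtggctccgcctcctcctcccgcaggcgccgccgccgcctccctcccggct
PIF1: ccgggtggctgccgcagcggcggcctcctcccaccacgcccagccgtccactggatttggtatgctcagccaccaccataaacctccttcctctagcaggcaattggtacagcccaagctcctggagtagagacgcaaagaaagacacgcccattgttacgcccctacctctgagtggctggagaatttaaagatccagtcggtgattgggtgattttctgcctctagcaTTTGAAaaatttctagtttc
GPR1: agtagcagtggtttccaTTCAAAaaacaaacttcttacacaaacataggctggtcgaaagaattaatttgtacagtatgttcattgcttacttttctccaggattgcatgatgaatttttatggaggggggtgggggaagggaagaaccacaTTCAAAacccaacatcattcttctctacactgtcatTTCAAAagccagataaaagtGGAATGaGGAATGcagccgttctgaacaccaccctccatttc
VAV3: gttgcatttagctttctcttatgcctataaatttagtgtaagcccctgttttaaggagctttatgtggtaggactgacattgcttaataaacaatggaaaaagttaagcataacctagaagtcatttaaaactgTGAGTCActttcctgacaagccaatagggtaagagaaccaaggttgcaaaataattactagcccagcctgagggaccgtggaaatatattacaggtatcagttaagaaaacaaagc

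The capitals in NEURL1B and PIF1 are the letters TTTGAA or their complement, the core of the CHR element known from promoters of genes used in G2 and mitosis. The first matched base lies 135 bases before the start in NEURL1B and 20 bases before it in PIF1. GPR1 holds the same letters at 3 places, 233, 98 and 62 bases before its start, followed by CATTCC, the core bound by TEAD factors, at 42 and 35 bases. The capitals in VAV3 are TGANTCA, the site bound by FOS and JUN dimers, 116 bases before its start. Of 35116 promoter regions of the same length, 13.3% held TTTGAA, 11.9% held CATTCC and 6.57% held TGANTCA on either strand, so such matches are frequent. Promoters were found for 8 of the 10 genes, GPR1 under its RefSeq symbol CMKLR2, and those of PCDH9, BEST2, LRP1 and GMPR held none of the 7 motifs searched. The other 4 motifs, TGTTTAC (FOXO), CCGGAAG (ETS), CACGTG (E-box) and TTCNNNGAA (STAT), were in none of the 8, against 2.98%, 8.52%, 6.34% and 6.57% of all promoters. The RefSeq starts used for GPR1, VAV3, PIF1, PCDH9, BEST2 and GMPR lie inside the gene spans of the other annotation used here. The PIF1 span there ends at chr15:64825668, so the match in PIF1 lies inside that span.

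On GRCh38 with GENCODE v29, PCDH9 spans chr13:66302834-67230445, GPR1 chr2:206175316-206218047, LRP1 chr12:57128493-57213351, VAV3 chr1:107571160-107965144 and NEURL1B chr5:172641266-172691540. CA2 spans chr8:85463852-85481493, BEST2 chr19:12751702-12758458, GMPR chr6:16238580-16295549 and PIF1 chr15:64815632-64825668. IGFL2-AS1, annotated as a long intergenic RNA, spans chr19:46189166-46203083 on the minus strand, between IGFL2 at chr19:46143106-46161299 and IGFL1 at chr19:46229752-46231243, both on the plus strand. Exons of LRP1 overlap STAT6 and LRP1-AS, those of PCDH9 overlap PCDH9-AS1 and those of NEURL1B overlap AC027309.1, all on the opposite strand, and the sources used here do not give the strand setting of the counting.

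The count tables held 2616 cells with 33089090 UMIs (unique molecular identifiers, one per captured transcript) in library 1 and 2221 cells with 28542571 UMIs in library 2, with medians of 12259 and 12332 UMIs per cell. Unstimulated cells were few and shallow, 175 and 29 cells with medians of 7975 and 7024 UMIs, and 15 h gave 488 and 64 cells. Levels are in CPM, the UMIs of a gene scaled to a common total per condition and library with edgeR's TMM factors. The libraries shared 0 barcodes. Tag tables called 56.1% and 40.2% of their barcodes doublets, which the count tables leave out, while a doublet of 2 cells sharing 1 tag would go unseen. DUSP6, a phosphatase induced by ERK, was at 2.48 ± 0.760 CPM with the inhibitor and 20.6 ± 2.89 CPM with EGF alone at 20 h (log2 change -3.01, edgeR adjusted p = 5.81e-11). At 30 h DUSP6 was at 2.16 ± 0.217 CPM with the inhibitor and 22.5 ± 0.589 CPM with EGF alone (log2 change -3.32, edgeR adjusted p = 2.10e-16). All 8 epithelial markers were in both tables and summed to between 12404 and 27510 CPM in every condition. Endothelial (2 of 4 in both tables) and immune markers (3 of 6) summed to at most 4.88 and 9.08 CPM. Fibroblast markers (3 of 7, of which only DCN passed 10 CPM) summed to 49.0 and 23.7 CPM with the MEK inhibitor and 13.3 and 9.39 CPM with EGF alone at 30 h. They summed to 96.3 and 93.8 CPM in unstimulated cells. Neural markers (2 of 5, of which only MAP2 passed 10 CPM) summed to 10.9 and 9.99 CPM with the MEK inhibitor and 1.33 and 2.15 CPM with EGF alone at 30 h. The part of these marker levels in the results below was not tested.

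The levels went with the description as raised by MEK inhibition for 9 of the 10 genes. Against EGF alone, fitted log2 changes with the MEK inhibitor had a median of 2.06 at 20 h and 2.44 at 30 h over the 10 genes, but PIF1 stood at 0.38 at 30 h and its values overlapped at 20 h. These comparisons chose the genes, so their values are a description and carry no test. Over all genes, 11.9% of 11147 tested were called at 20 h and 37.8% at 30 h (edgeR, adjusted p under 0.05), 4.8% and 18.9% as higher and 7.15% and 19% as lower. Those are 535 higher and 797 lower genes at 20 h and 2102 and 2113 at 30 h. Scaled by library totals they become 408 higher and 985 lower at 20 h and 1349 higher and 3263 lower at 30 h, and without the library as a block 342 genes are called at 20 h and 2136 at 30 h. Ranked among the 298 called rises with a mean of at least 20 CPM at 20 h, PCDH9, GPR1, VAV3 and CA2 held places 2 to 5 and GMPR place 9. The genes not chosen among the top 10 places were CDKN1C at place 1 (log2 change 3.40), KCNQ1OT1 at 6 (1.88), SERPINB13 at 7 (1.82), CRYAB at 8 (1.75) and CPA4 at 10 (1.60). Among 1262 such rises at 30 h, BEST2 held place 1, IGFL2-AS1 place 4 and LRP1 place 6, next to KRT16 at 7 (3.54), and GPR1, GMPR, PCDH9, NEURL1B and VAV3 held places 16, 28, 31, 49 and 60. Against the PI3K inhibitor instead of EGF alone, PIF1 and NEURL1B held places 1 and 3 at 30 h, so the values with the PI3K inhibitor may have entered the choice too.

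PCDH9, a protocadherin of the cell surface best known from neurons, was at 14.6 and 9.92 CPM after 15 h of EGF, against 84.2 and 74.9 CPM in unstimulated cells. At 20 h PCDH9 was at 99.2 and 82.5 CPM with the MEK inhibitor, 17.4 and 18.8 CPM with the PI3K inhibitor and 17.1 and 14.4 CPM with EGF alone. At 30 h PCDH9 was at 132 and 99.7 CPM with the MEK inhibitor, 19.4 and 15.1 CPM with the PI3K inhibitor and 28.2 and 16.7 CPM with EGF alone. Every MEK inhibitor value lay above every value with EGF alone or the PI3K inhibitor, with log2 changes against EGF alone of 2.54 ± 0.14 (SE) at 20 h and 2.40 ± 0.12 at 30 h. The unstimulated values overlapped those with the MEK inhibitor at 20 h and lay below those at 30 h. PCDH9-AS1, its antisense neighbour, had at most 10 UMIs in any condition of a library.

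GPR1, a G protein-coupled receptor that binds chemerin, was at 2.37 and 2.83 CPM after 15 h of EGF, against 17.7 and 8.81 CPM in unstimulated cells, where it had 21 and 2 UMIs. At 20 h GPR1 was at 20.5 and 25.9 CPM with the MEK inhibitor, 1.96 and 2.47 CPM with the PI3K inhibitor and 2.56 and 6.38 CPM with EGF alone. At 30 h GPR1 was at 29.8 and 36.2 CPM with the MEK inhibitor, 1.74 and 2.27 CPM with the PI3K inhibitor and 2.11 and 5.06 CPM with EGF alone. Both MEK inhibitor times lay above all other conditions, and the 30 h values lay above those at 20 h without overlap. The log2 changes against EGF alone were 2.51 ± 0.26 at 20 h and 3.11 ± 0.22 at 30 h.

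LRP1, an endocytic receptor of the LDL receptor family that clears proteases and lipoprotein remnants, was at 4.74 and 4.25 CPM after 15 h of EGF, against 16 and 8.81 CPM in unstimulated cells (19 and 2 UMIs). At 20 h LRP1 was at 7.37 and 7.83 CPM with the MEK inhibitor, 1.96 and 2.47 CPM with the PI3K inhibitor and 2.08 and 1.92 CPM with EGF alone. At 30 h LRP1 was at 30.8 and 32.6 CPM with the MEK inhibitor, 3.47 and 3.25 CPM with the PI3K inhibitor and 2.63 and 2.70 CPM with EGF alone. The libraries lay close together in each of these groups, and the difference from EGF alone was larger at 30 h (log2 3.56 ± 0.22) than at 20 h (1.89 ± 0.36), a difference between times that was not tested. STAT6, whose exons overlap LRP1 on the other strand, was at 20.6 ± 4.49 CPM with the inhibitor and 15.0 ± 1.04 CPM with EGF alone at 30 h, log2 change 0.40, edgeR adjusted p = 0.0575.

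VAV3, the exchange factor, was at 6.78 and 4.25 CPM after 15 h of EGF, against 7.58 and 8.81 CPM in unstimulated cells (9 and 2 UMIs). At 20 h VAV3 was at 26.0 and 18.7 CPM with the MEK inhibitor, 5.89 and 6.43 CPM with the PI3K inhibitor and 5.45 and 4.79 CPM with EGF alone. At 30 h VAV3 was at 28.3 and 27.3 CPM with the MEK inhibitor, 2.73 and 3.08 CPM with the PI3K inhibitor and 9.74 and 7.43 CPM with EGF alone. VAV3 with the MEK inhibitor lay above the unstimulated cells as well as above all other groups, and its unstimulated values overlapped those at 30 h of EGF alone. VAV3 differed from EGF alone by log2 changes of 2.10 ± 0.24 at 20 h and 1.73 ± 0.18 at 30 h.

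NEURL1B, the ubiquitin ligase that promotes endocytosis of Notch ligands, had 2 and 0 UMIs after 15 h of EGF, against 5 and 0 UMIs in unstimulated cells. At 20 h NEURL1B was at 7.37 and 7.53 CPM with the MEK inhibitor, 0.561 and 0.989 CPM with the PI3K inhibitor and 0.801 and 1.60 CPM with EGF alone. At 30 h NEURL1B was at 19.1 and 30.4 CPM with the MEK inhibitor, 0.496 and 1.46 CPM with the PI3K inhibitor and 3.69 and 8.78 CPM with EGF alone. It was thus higher at the later time both with the MEK inhibitor and with EGF alone, by log2 1.76 and 2.43, and the EGF values at 30 h overlapped the MEK inhibitor values at 20 h. At matched times the groups did not overlap, with log2 changes of 2.62 ± 0.45 at 20 h and 1.94 ± 0.21 at 30 h.

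CA2, the enzyme that hydrates carbon dioxide in the cytosol, differed between libraries in almost every group. After 15 h of EGF it was at 8.30 and 29.8 CPM, against 5.89 and 13.2 CPM in unstimulated cells. At 20 h CA2 was at 23.3 and 83.1 CPM with the MEK inhibitor, 2.53 and 7.91 CPM with the PI3K inhibitor and 6.25 and 20.7 CPM with EGF alone. At 30 h CA2 was at 14.5 and 18.6 CPM with the MEK inhibitor, 1.49 and 6.01 CPM with the PI3K inhibitor and 5.53 and 9.96 CPM with EGF alone. Library 2 had the higher value in all 8 conditions. Within each library and at both times CA2 under the MEK inhibitor exceeded CA2 under EGF alone, while library 2 at 15 h of EGF exceeded both libraries with the inhibitor at 30 h. CA2 was the 1 gene of the 10 that was lower with the MEK inhibitor at 30 h than at 20 h (log2 change -1.73), and its log2 changes against EGF alone were 2.02 ± 0.21 at 20 h and 1.06 ± 0.24 at 30 h. Without the library as a block these SEs were 0.60 and 0.64. With 1 sum left out the change of CA2 at 30 h ran from 0.63 to 1.99, the highest without the MEK inhibitor cells of library 2.

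BEST2, an anion channel of the bestrophin family, was at 3.73 and 1.42 CPM after 15 h of EGF, against 90.1 and 39.7 CPM in unstimulated cells. At 20 h BEST2 was at 6.59 and 3.62 CPM with the MEK inhibitor, 4.49 and 1.98 CPM with the PI3K inhibitor and 1.76 and 0 CPM with EGF alone. At 30 h BEST2 was at 28.6 and 12.0 CPM with the MEK inhibitor, 2.23 and 2.60 CPM with the PI3K inhibitor and 0.527 and 0.675 CPM with EGF alone. At 20 h the MEK and PI3K inhibitor values overlapped, and at 30 h the MEK inhibitor values stood above them. The log2 change of 4.82 ± 0.38 against EGF alone at 30 h rests on 114 and 104 UMIs with the inhibitor and 2 and 4 UMIs with EGF alone, and ran from 4.16 to 5.61 with 1 library of EGF alone left out. Unstimulated cells held more, and BEST2 with the MEK inhibitor at 30 h was lower than at 0 h (log2 change -1.73).

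GMPR, which returns guanine nucleotides to IMP, was at 6.27 and 8.50 CPM after 15 h of EGF, against 47.1 and 22.0 CPM in unstimulated cells. At 20 h GMPR was at 24.4 and 20.8 CPM with the MEK inhibitor, 2.24 and 2.47 CPM with the PI3K inhibitor and 4.97 and 9.89 CPM with EGF alone. At 30 h GMPR was at 47.6 and 47.9 CPM with the MEK inhibitor, 2.98 and 4.22 CPM with the PI3K inhibitor and 10.3 and 7.43 CPM with EGF alone. GMPR with the MEK inhibitor lay above every EGF and PI3K inhibitor value after 0 h, and at 30 h the values lay close to the higher of the unstimulated ones. GMPR differed from EGF alone by log2 changes of 1.74 ± 0.25 at 20 h (1.13 without the EGF cells of library 1) and 2.47 ± 0.18 at 30 h. Its close relative GMPR2, which catalyses the same reaction, was at 41.1 ± 2.51 CPM with the inhibitor and 35.4 ± 0.960 CPM with EGF alone at 30 h, log2 change 0.19, edgeR adjusted p = 0.220.

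IGFL2-AS1, the non-coding RNA of the IGFL cluster, was at 8.30 and 5.67 CPM after 15 h of EGF, against 100.2 and 66.1 CPM in unstimulated cells. At 20 h IGFL2-AS1 was at 23.6 and 11.7 CPM with the MEK inhibitor, 8.14 and 3.46 CPM with the PI3K inhibitor and 7.21 and 4.79 CPM with EGF alone. At 30 h IGFL2-AS1 was at 88.5 and 37.4 CPM with the MEK inhibitor, 3.72 and 1.62 CPM with the PI3K inhibitor and 3.16 and 2.70 CPM with EGF alone. Library 1 was the higher in each of the 8 conditions, and the MEK inhibitor values at 30 h overlapped those of unstimulated cells. The log2 changes against EGF alone were 1.61 ± 0.25 at 20 h and 4.28 ± 0.20 at 30 h.

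PIF1, the helicase, had 3 and 1 UMIs after 15 h of EGF, against 0 and 0 UMIs in unstimulated cells. At 20 h PIF1 had 1 and 11 UMIs with the MEK inhibitor, 2 and 1 UMIs with the PI3K inhibitor and 7 and 10 UMIs with EGF alone. At 30 h PIF1 was at 17.8 and 26.8 CPM with the MEK inhibitor, 0.496 and 0.162 CPM with the PI3K inhibitor (2 and 1 UMIs) and 13.7 and 20.6 CPM with EGF alone. The MEK inhibitor and EGF values overlapped at 30 h, with a log2 change of 0.38 ± 0.18, and both stood far above the PI3K inhibitor. PIF1 was higher at 30 h than at 20 h by log2 3.48 with the MEK inhibitor and 3.10 with EGF alone.

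**Figure D1:**
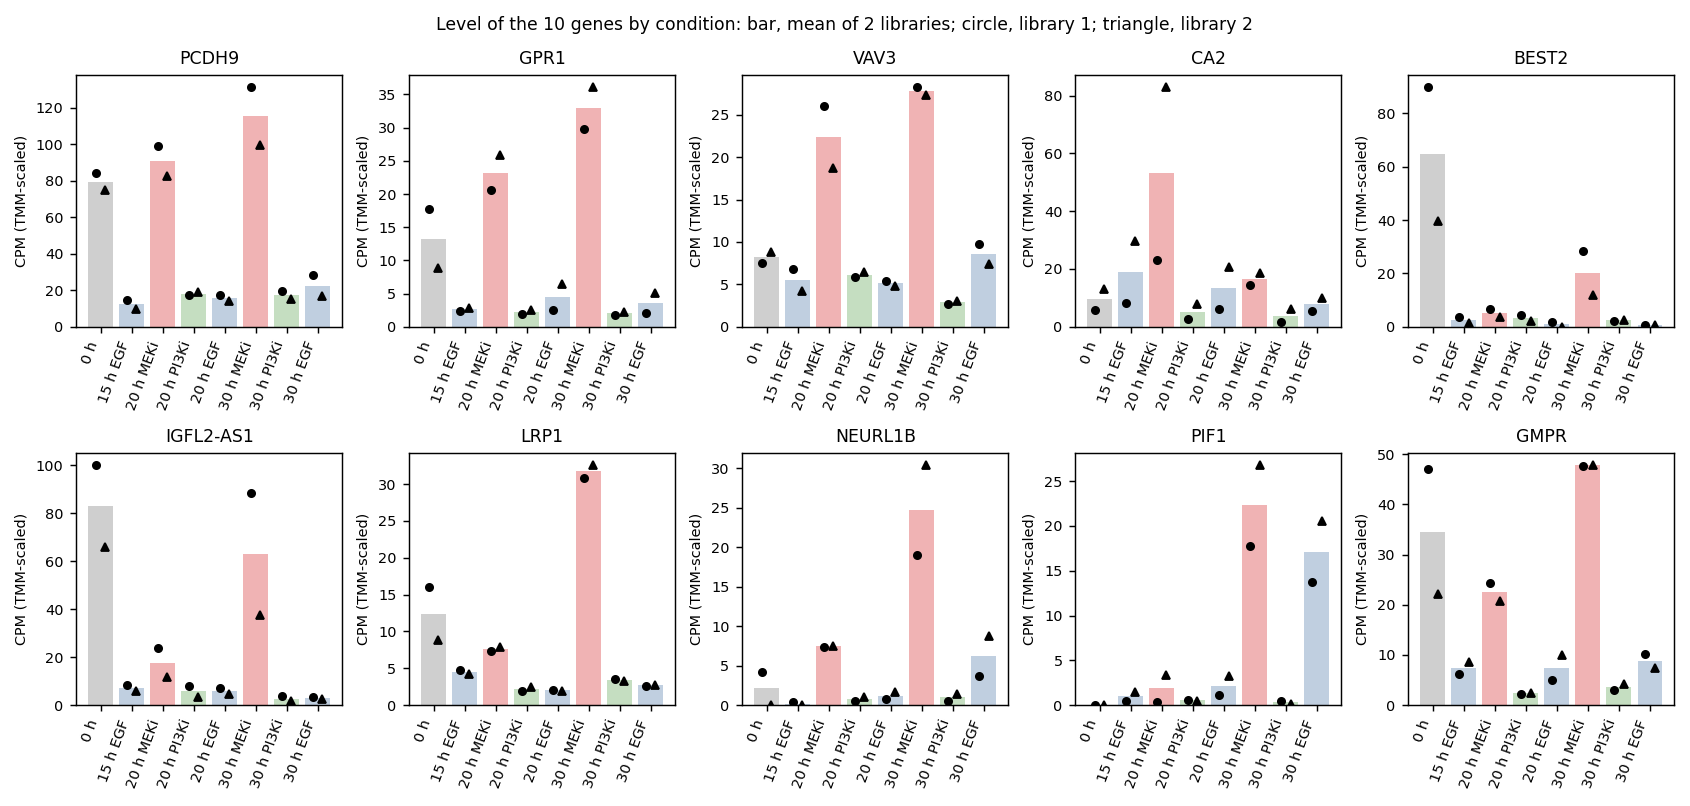
Level of each of the 10 genes (y axis, TMM-scaled CPM, own scale per panel) in the 8 conditions, with 0 h and 15 h of EGF at the left and each inhibitor left of EGF alone at 20 h and 30 h. Bars are means of the 2 libraries, circles library 1 and triangles library 2. The MEK inhibitor bars exceed those of EGF alone at 30 h in all 10 panels, and for PIF1 the libraries overlap (17.8 and 26.8 CPM against 13.7 and 20.6 CPM).

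The comparison of 15 h of EGF with unstimulated cells uses none of the samples with the MEK inhibitor or with EGF alone at 20 h and 30 h, and was tested. The exact rule behind the choice is not known. GPR1 and PCDH9 held places 1 and 4 with the MEK inhibitor at 20 h against 15 h of EGF, and PIF1 place 2 with it at 30 h against unstimulated cells. If the 15 h or 0 h values entered the choice, the p-values that follow are a description only. After 15 h of EGF 7 of the 10 genes were called lower, all but VAV3, CA2 and PIF1 (edgeR, adjusted p under 0.05). NEURL1B and PIF1 had at most 5 UMIs in any sum of these 2 conditions. They passed the count filter through other conditions, those with the MEK inhibitor among them, so their results here are a description only. Over all genes 28% of 11147 were called, 13.9% as lower and 14.1% as higher, which is 1567 higher and 1549 lower genes. Scaled by library totals the split is 2263 higher and 1150 lower, with the median of all genes shifted by 0.19 on the log2 scale, and without the library as a block 1876 genes are called. The fall was largest for BEST2, at -4.59 ± 0.32 (edgeR adjusted p = 1.34e-16), and IGFL2-AS1, at -3.61 ± 0.24 (edgeR adjusted p = 5.61e-17), both on the log2 scale. GMPR fell by log2 2.70 (edgeR adjusted p = 3.50e-09), GPR1 by 2.70 (2.04e-05), PCDH9 by 2.58 (1.24e-13) and LRP1 by 1.65 (0.00190). For these 6 genes both libraries moved down in CPM. In library 2, however, GPR1, LRP1 and GMPR had only 2, 2 and 5 UMIs at 0 h and 2, 3 and 6 UMIs at 15 h. The call for NEURL1B (edgeR adjusted p = 0.0179) rests on 7 UMIs, all in library 1.

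VAV3 and CA2 missed the threshold with log2 changes of -0.27 ± 0.49 and 0.70 ± 0.54 (edgeR adjusted p = 0.740 and 0.365), and PIF1, with no UMI at 0 h, gives no fold (edgeR adjusted p = 0.388). The median log2 change was -2.64 over the 10 genes and 0.02 over all tested genes. Without the 175 unstimulated cells of library 1, 3 of the genes were called, PCDH9, BEST2 and IGFL2-AS1, over all genes 502 in place of 3116, and the fitted change of NEURL1B turned to 4.03 (edgeR adjusted p = 0.841). The log2 changes of GMPR, GPR1 and LRP1 were then -1.70, -1.44 and -0.85 (edgeR adjusted p = 0.284, 0.601 and 0.746), so their size depends on that library. Without the 15 h cells of library 1, LRP1 and NEURL1B lost their call (edgeR adjusted p = 0.114 and 0.131) and 1430 genes were called in all. Without the library as a block NEURL1B had an edgeR adjusted p of 0.0861. With cells thinned to equal depth 4 were called, those 3 and GMPR. Fibroblast markers, of which DCN passed 10 CPM at 0 h, summed to 17.7 and 7.87 CPM at 15 h, against 96.3 and 93.8 CPM at 0 h, and their part was not tested.

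**Figure D2:**
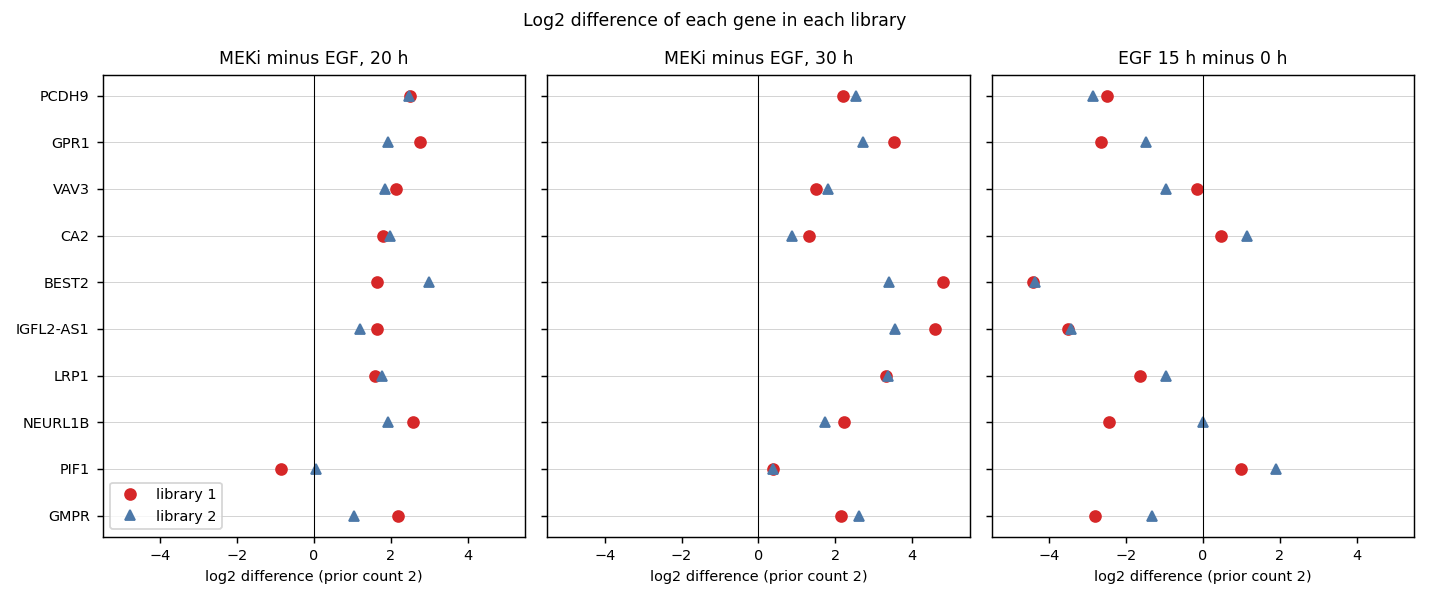
Log2 difference of each gene (rows) within library 1 (circles) and library 2 (triangles) for the MEK inhibitor minus EGF alone at 20 h (left) and 30 h (middle) and for 15 h of EGF minus 0 h (right), with a prior count of 2. In the left and middle panels points lie right of 0 for every gene but PIF1 at 20 h, and in the right panel BEST2 and IGFL2-AS1 lie farthest left; points of PIF1 and NEURL1B in the right panel rest on at most 5 UMIs and are no bounds.

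With the PI3K inhibitor, most of the 10 genes lay near or below EGF alone. Its comparisons share the EGF samples with those of the MEK inhibitor and its values may have entered the choice, so they carry no test. At 20 h the log2 changes against EGF alone were -1.34 for CA2, -1.51 for GMPR and -0.85 for GPR1. NEURL1B and PIF1 had at most 10 UMIs in either group, and BEST2 had 16 and 4 UMIs with the inhibitor and 11 and 0 with EGF alone. The log2 changes of PCDH9, VAV3, IGFL2-AS1 and LRP1 lay between 0.02 and 0.23. At 30 h, VAV3 stood at -1.5, GMPR at -1.20, CA2 at -0.98 and NEURL1B at -2.60, and PIF1 had 2 and 1 UMIs with the PI3K inhibitor and 52 and 122 with EGF alone. Of the 10 genes, 8 had a negative value at 30 h, and the highest was 1.93 for BEST2, which had 9 and 16 UMIs with the PI3K inhibitor and 2 and 4 with EGF alone.

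Relative to the 15 h of EGF from which the PI3K inhibitor cultures started, CA2 stood at log2 -1.68, GMPR at -1.48 and LRP1 at -1.12. Between 20 h and 30 h with the PI3K inhibitor, IGFL2-AS1 stood at -1.14 and VAV3 at -1.0. Over all genes 19.4% and 11.1% of 11147 were called in these comparisons. The median over the 10 genes was -0.19 and -0.22, beside 0.02 and 0.01 over all genes tested.

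Single cells gave the share with at least 1 UMI of each gene, after every cell was thinned to 3000 UMIs to hold depth equal. With the MEK inhibitor at 30 h, PCDH9 was seen in 29.5% (24.7 to 34.6%) of library 1 cells and 27.6% (24.1 to 31.3%) of library 2 cells, with exact Clopper-Pearson 95% intervals for counting error only. With EGF alone at 30 h the shares of PCDH9 were 7.35% (4.41 to 11.4%) and 6.98% (4.52 to 10.2%). Unthinned, they were 67.1% and 65.1% with the inhibitor and 30.2% and 23.5% with EGF alone. PCDH9 was thus seen in about the same share of cells in both libraries of a treatment.

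IGFL2-AS1 was seen in 20.2% and 10.7% of cells with the MEK inhibitor at 30 h and 1.22% and 2.03% with EGF alone, beside 16% and 17.2% of unstimulated cells. BEST2 was seen in 6.07% and 4.22% with the inhibitor and 0.408% and 0.291% with EGF alone, beside 16.6% and 17.2% at 0 h. GMPR was seen in 11.8% and 13.6% with the inhibitor and 2.04% and 2.91% with EGF alone. Each of these 3 shares was several times higher with the inhibitor in both libraries.

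GPR1 was seen in 7.51% and 9.74% of cells with the MEK inhibitor at 30 h and 0.408% and 2.33% with EGF alone. LRP1 was seen in 7.23% and 9.25% with the inhibitor and 0% and 0.581% with EGF alone, the 0% being 0 of 245 cells at 3000 UMIs (exact upper end 1.49%). Unthinned, LRP1 was seen in 24.9% and 35.1% with the inhibitor and 4.08% and 4.65% with EGF alone, so the 0% holds for that depth only. VAV3 was seen in 7.80% and 8.28% with the inhibitor and 2.86% and 3.49% with EGF alone. CA2 at 20 h was seen in 5.56% and 17.6% with the inhibitor and 2.05% and 4.72% with EGF alone, the same split between libraries as in its level.

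NEURL1B was seen in 3.76% and 6.17% of cells with the MEK inhibitor at 30 h and 0.816% and 3.49% with EGF alone. PIF1 was seen in 4.91% and 7.95% with the inhibitor and 2.04% and 7.27% with EGF alone, and in library 2 these differ by less than their counting intervals. With the PI3K inhibitor at 30 h PIF1 was seen in 0 of 376 and 0 of 504 cells at 3000 UMIs (exact upper ends 0.976% and 0.729%), and unthinned in 0.532% and 0.198% of them. All conditions of a library were pooled before capture and so share any free RNA in droplets, and no cell type that should lack the genes was present to give a background share.

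The comparison with EGF alone chose the genes, so the counts that follow are a description, and shares of other genes were not counted. All 10 genes had a higher share under the MEK inhibitor than under EGF alone at 30 h in both libraries at 3000 UMIs. The count was 9 of 10 without thinning, where PIF1 went the other way (12.4% and 23.2% with the inhibitor and 14.3% and 26.2% with EGF alone). A cell held on average 1.03 and 1.02 of the 10 genes with the MEK inhibitor at 30 h, 0.0904 and 0.129 under PI3K inhibition and 0.192 and 0.314 with EGF alone. Cells with 3 or more of them made up 7.80 and 7.47% with the MEK inhibitor, 0% in both libraries with the PI3K inhibitor and 0 and 0.581% with EGF alone. Cells at 20 h held a mean of 0.648 and 0.672 under MEK inhibition and 0.155 and 0.210 with EGF alone, and unstimulated cells a mean of 0.760 and 0.655.

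**Figure D3:**
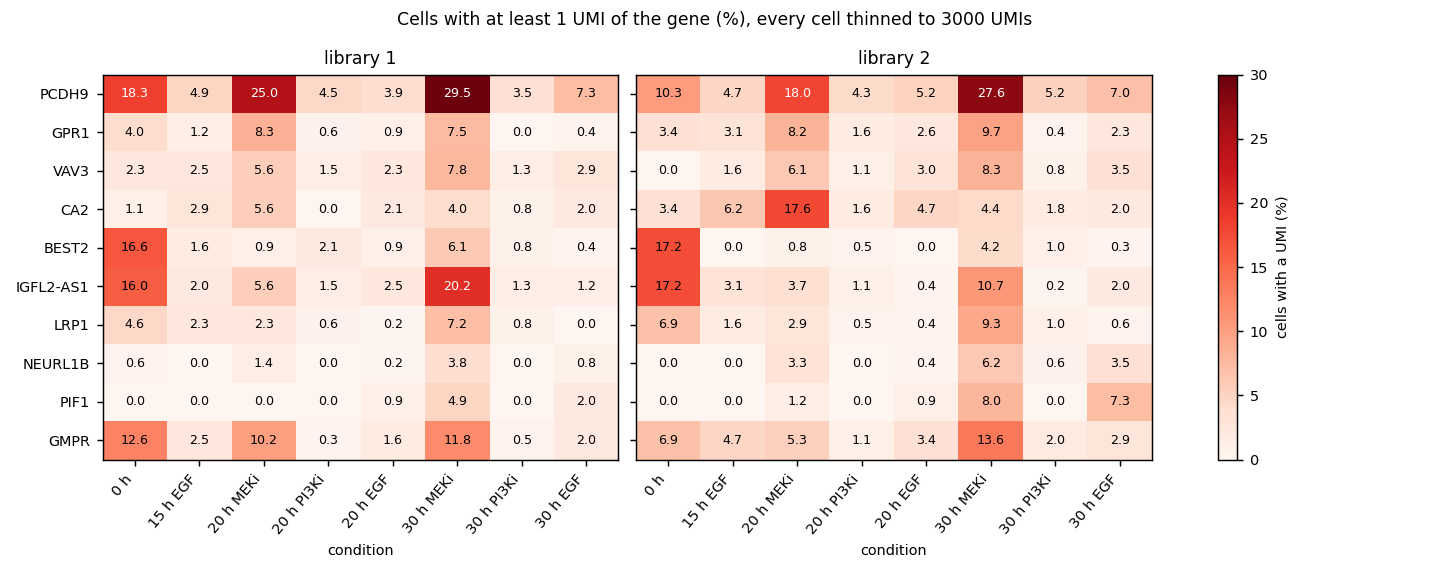
Share of cells (%, colour and number) with at least 1 UMI of each gene (rows) in the 8 conditions (columns) of library 1 (left) and library 2 (right), every cell thinned to 3000 UMIs. PCDH9, IGFL2-AS1 and GMPR have their darkest cells with the MEK inhibitor and at 0 h, and PIF1 is 0.0 in every PI3K inhibitor column.

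Cells were called G1, S or G2/M within each library from scores of S and G2/M genes, none of which was among the 10. A score is the mean log level of the listed genes less that of control genes. Cells called G1 made up 65.3% and 36.4% with the MEK inhibitor, 87.0% and 82.1% with the PI3K inhibitor and 25.7% and 16% with EGF alone at 30 h. Cells called G2/M made up 32.1% and 62.8% with the MEK inhibitor, 10.6% and 13.1% with the PI3K inhibitor and 55.9% and 73.0% with EGF alone. Phase calls also read free RNA, whose part was not tested. The libraries with the MEK inhibitor differed in this mix, so each gene was also counted within a phase.

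NEURL1B and PIF1 were found mostly in cells called G2/M. With the MEK inhibitor at 30 h, NEURL1B was at 40.4 and 45.8 CPM (of the UMIs of those cells) in G2/M cells, against 1.98 and 1.42 CPM in G1 cells, a ratio of 20.5 in library 1 and 32.3 in library 2. PIF1 was at 38.2 and 40.7 CPM in G2/M cells, against 1.58 and 0.354 CPM in G1 cells (4 and 1 UMIs). With EGF alone the same order was seen, with PIF1 at 21.9 and 30.6 CPM in G2/M cells and 0 and 3.94 CPM in G1 cells. Among G2/M cells, NEURL1B was at 40.4 and 45.8 CPM with the MEK inhibitor and 4.72 and 12.5 CPM with EGF alone. PIF1 in those cells was at 38.2 and 40.7 CPM with the inhibitor and 21.9 and 30.6 CPM with EGF alone, values that did not overlap. The counting intervals of PIF1 overlapped in library 2, at 35.6 to 46.3 CPM with the inhibitor and 25.3 to 36.7 CPM with EGF alone. In library 1 they did not, at 29.6 to 48.5 CPM and 16.3 to 28.7 CPM.

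IGFL2-AS1 had the opposite distribution. With the MEK inhibitor at 30 h it was at 18.2 and 22.0 CPM in G2/M cells, against 124 and 70.5 CPM in G1 cells. BEST2 was at 12.5 and 10.3 CPM in G2/M cells, against 35.6 and 16.3 CPM in G1 cells, and CA2 at 7.97 and 11.2 CPM in G2/M cells, against 16.6 and 34.4 CPM in G1 cells. GMPR went the other way, at 53.0 and 56.1 CPM in G2/M cells and 37.5 and 34.0 CPM in G1 cells. PCDH9, GPR1, LRP1 and VAV3 differed between these phases by at most 1.38-fold in either library.

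The 2 treatments were also set side by side within a phase, again as a description. This comparison chose the genes, and other genes were not counted within phases. At 30 h, 10 of the 10 were higher with the MEK inhibitor in both libraries among G2/M cells and 8 of 10 among G1 cells, the exceptions being NEURL1B and PIF1, which had at most 5 UMIs per library there. In G1 cells PCDH9 was at 134 and 103 CPM with the inhibitor and 55.4 and 28.9 CPM with EGF alone, and in G2/M cells at 97.4 and 100.2 CPM with the inhibitor and 20.1 and 18.4 CPM with EGF alone. In G1 cells LRP1 was at 28.9 and 34.7 CPM with the inhibitor and 5.41 and 3.94 CPM with EGF alone. IGFL2-AS1 in G2/M cells was at 18.2 and 22.0 CPM with the inhibitor and 0.857 and 1.82 CPM with EGF alone. CA2 in G1 cells was at 16.6 and 34.4 CPM with the inhibitor and 5.41 and 27.6 CPM with EGF alone, and in G2/M cells at 7.97 and 11.2 CPM with the inhibitor and 5.14 and 7.78 CPM with EGF alone. The counting intervals of CA2 overlapped in both phases and both libraries. Those of VAV3 overlapped in G1 cells of library 2, at 18.1 to 29.8 CPM with the inhibitor and 4.53 to 20.7 CPM with EGF alone. They also overlapped in G2/M cells of library 1, at 16.3 to 31.0 CPM and 8.33 to 17.9 CPM. With phases called from unthinned cells CA2 in G1 cells was at 16.5 and 34.3 CPM with the inhibitor and 6.90 and 41.5 CPM with EGF alone, lower with the inhibitor in library 2. The exceptions in G1 cells were then NEURL1B and CA2.

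**Figure D4:**
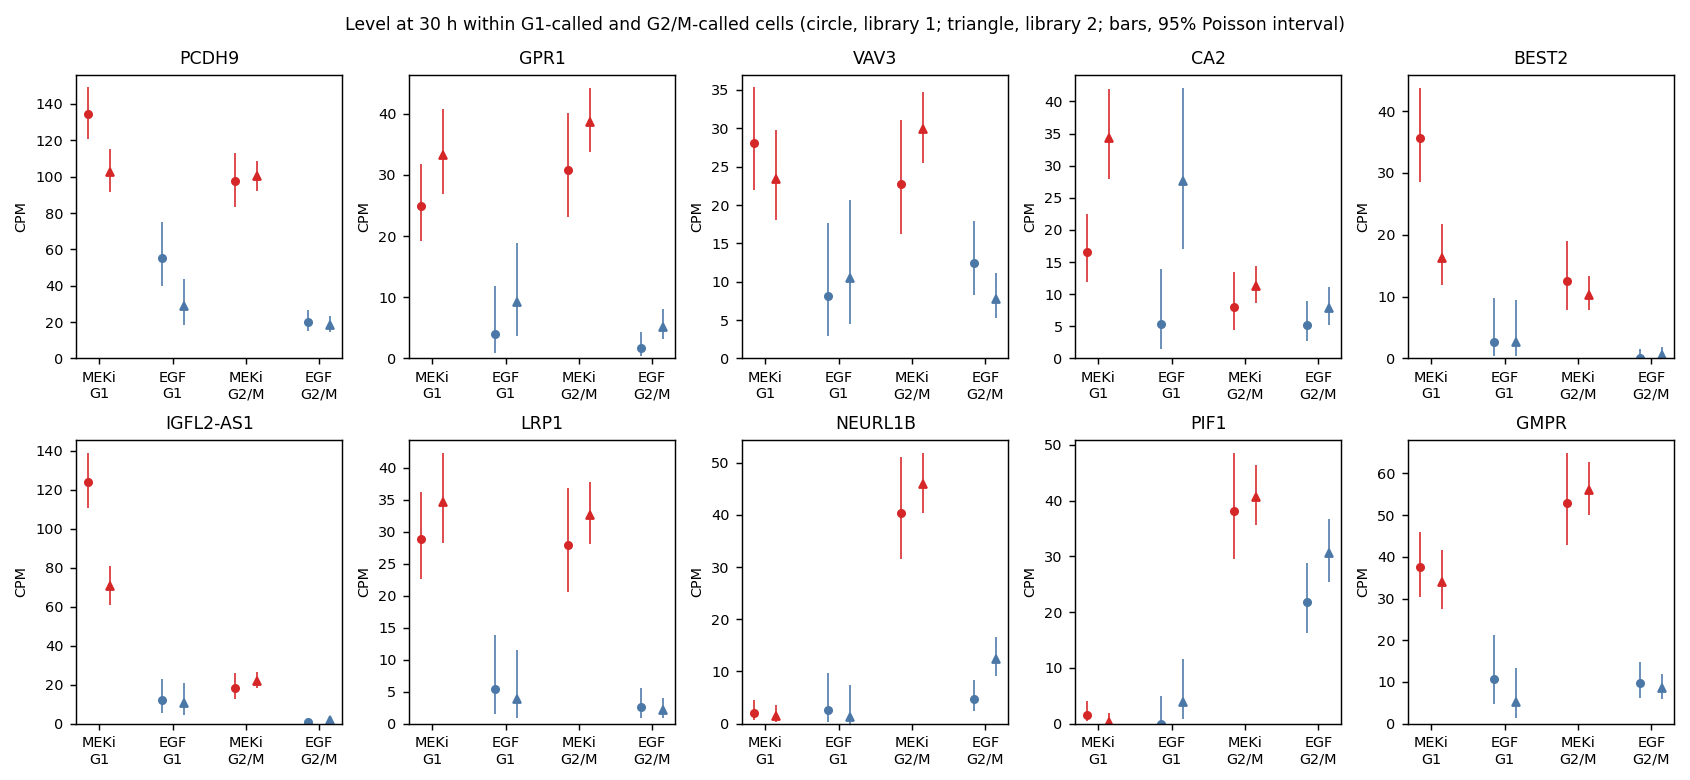
Level of each gene (y axis, CPM of the UMIs of the cells counted) at 30 h in cells called G1 and G2/M, with the MEK inhibitor (red, left of each pair) and with EGF alone (blue), in library 1 (circles) and library 2 (triangles), with exact Poisson 95% intervals for counting error only. NEURL1B and PIF1 lie near 0 in G1 cells and between 38.2 and 45.8 CPM in G2/M cells with the inhibitor, and IGFL2-AS1 is higher in G1 cells.

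Over the 16 library and condition values, with each library centred, the genes whose log2 levels were most like the mean of the 10 were SERPINB13 (Pearson r = 0.970), NFIC (0.964), HMGN3 (0.962), CPA4 (0.957) and ATP1B1 (0.949), among 6915 genes with at least 10 CPM. These values share libraries and depth, and the correlations are descriptions. SERPINB13, a serpin of squamous epithelia, averaged 95.9 ± 11.2 CPM with the MEK inhibitor at 30 h, 2.82 ± 1.53 CPM with the PI3K inhibitor and 9.31 ± 4.97 CPM with EGF alone (SD, n = 2). It was also the gene most like GPR1 (r = 0.950), before NFIC (0.948), and most like GMPR (0.971), before ATP1B1 (0.954).

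Nearest to IGFL2-AS1 were WISP2 (r = 0.976) and FGFR3 (0.975), nearest to BEST2 TSPYL2 (0.965) and MT-CO1 (0.949), and nearest to LRP1 the small heat shock protein HSPB1 (0.958) and VSIR (0.952). WISP2 and FGFR3 averaged 34.9 ± 15.5 and 37.5 ± 10.8 CPM with the MEK inhibitor at 30 h, 3.76 ± 1.02 and 7.41 ± 2.65 CPM with EGF alone, and 63.4 ± 3.89 and 39.4 ± 12.9 CPM in unstimulated cells. PCDH9 was nearest to WNK1 (0.944) and PDE4DIP (0.943), VAV3 to GHITM (0.918) and UQCR10 (0.904), and NEURL1B to ADI1 (0.958) and ATP5MPL (0.926). PIF1 was nearest to FDFT1 (0.951), a sterol synthesis enzyme, and to CDC20 (0.934), an activator of the anaphase-promoting complex. CDC20 averaged 132 ± 50.1 CPM with the MEK inhibitor at 30 h, 19.1 ± 5.19 CPM with the PI3K inhibitor and 124 ± 22.8 CPM with EGF alone. A gene close to CA2 was HIGD1A (0.902). Among the 10 themselves r ran from -0.208 for BEST2 and PIF1 to 0.924 for PCDH9 and GPR1.

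Relatives of the 10 genes, in 10 lists chosen with earlier results of these data known, moved in both directions. Of 113 tested relatives, 4 were called higher and 14 lower under the MEK inhibitor than under EGF alone at 20 h. Over all tested genes 4.8% were higher and 7.15% lower at that time. At 30 h 23 relatives were higher and 32 lower, beside 18.9% and 19% of all tested genes. After 15 h of EGF 24 relatives were higher and 17 lower than in unstimulated cells, beside 14.1% and 13.9% of all tested genes. Without the library as a block 4 relatives passed at 20 h and 28 at 30 h, and in DESeq2 9 and 34. Scaling by library totals in place of TMM shifts the median of all genes at 30 h by -0.18 on the log2 scale. The relatives called were then 2 higher and 18 lower at 20 h, and 15 higher and 43 lower at 30 h. The 4 paralogs tested had edgeR adjusted p from 0.156 to 0.930 at 20 h and from 0.201 to 0.948 at 30 h. At 30 h VAV2 was at 5.45 ± 0.966 CPM with the inhibitor and 6.49 ± 3.96 CPM with EGF alone, log2 change -0.32, edgeR adjusted p = 0.374. BEST1 was at 4.24 ± 1.03 CPM with the inhibitor and 2.98 ± 0.631 CPM with EGF alone, log2 change 0.60, edgeR adjusted p = 0.201, and PCDH7 was at 1.60 ± 0.845 CPM with the inhibitor and 1.80 ± 0.315 CPM with EGF alone, log2 change -0.06, edgeR adjusted p = 0.948. The paralog NEURL1 was too low to be tested, and none of the 3 chemerin genes listed was in both tables.

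Cadherins and protocadherins were the list with most rises. Of 14 tested, 8 rose and 2 fell at 30 h, beside 18.9% and 19% of all tested genes. Their median log2 change was 0.52, beside 0.01 over all genes. DSC2, a desmosomal cadherin, was at 44.4 ± 13.1 CPM with the inhibitor and 12.3 ± 4.34 CPM with EGF alone (log2 change 1.84, edgeR adjusted p = 1.58e-12). CELSR2 rose by log2 1.60, edgeR adjusted p = 1.71e-04, and CDH4, a classical cadherin, stood at -1.53, edgeR adjusted p = 6.91e-06. At 20 h 2 of the 14 rose and 2 fell, beside 4.8% and 7.15% of all tested genes. In the comparison of 15 h of EGF with unstimulated cells, 3 of the 14 rose and 7 fell, beside 14.1% and 13.9% of all tested genes.

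Around IGFL2-AS1, both tested members of the IGFL family, small secreted proteins, rose at 30 h. IGFL2 was at 17.8 ± 3.90 CPM with the inhibitor and 3.33 ± 0.884 CPM with EGF alone (log2 change 2.43, edgeR adjusted p = 3.52e-11), and IGFL1 was at 6.52 ± 1.42 CPM with the inhibitor and 2.80 ± 0.139 CPM with EGF alone (1.25, edgeR adjusted p = 0.0262). IGFL2 also passed at 20 h, with 8.31 ± 1.95 CPM with the inhibitor and 3.76 ± 2.16 CPM with EGF alone (1.07, edgeR adjusted p = 0.0208). Among listed anion channels and related proteins, 4 of 8 rose at 30 h. They were led by ANO10 (0.92, edgeR adjusted p = 3.15e-04), CLIC4 (0.82, edgeR adjusted p = 1.32e-06) and CLCA2 (0.80, edgeR adjusted p = 1.71e-08). Over all tested genes 18.9% were higher at 30 h and 4.8% at 20 h.

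Of the listed enzymes that make and salvage purine nucleotides, those of guanine among them, most that passed fell, while GMPR was higher. Of 19 tested, 5 fell at 20 h and 11 at 30 h, beside 7.15% and 19% of all tested genes. APRT rose at 30 h (0.33, edgeR adjusted p = 0.00222). PNP, a purine salvage enzyme, was at 30.5 ± 2.77 CPM with the inhibitor and 69.6 ± 13.9 CPM with EGF alone at 30 h (-1.21, edgeR adjusted p = 1.19e-11). GART and PFAS, of the de novo pathway, stood at log2 -0.95, edgeR adjusted p = 1.16e-08, and -0.93, edgeR adjusted p = 0.0256. After 15 h of EGF, 8 of the 19 were called higher than in unstimulated cells, beside 14.1% of all tested genes. Of 15 DNA helicases other than PIF1, 5 fell at 30 h, and 6 rose at 15 h of EGF against unstimulated cells. Among the falls were HELLS (-1.33, edgeR adjusted p = 1.98e-11), WRN (-0.91, edgeR adjusted p = 9.50e-06) and BLM (-0.83, edgeR adjusted p = 0.0119). S phase genes moved likewise at 30 h, where 36 of 42 tested fell and 0 rose under MEK inhibition. At 20 h 2 of these 42 fell and 0 rose, and after 15 h of EGF 29 rose and 0 fell. Fewer cells were called S under MEK inhibition at 30 h. The part of this phase mix in the falls of helicases and purine enzymes was not tested.

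The lists that follow are small and are read beside the 18.9% higher and 19% lower over all tested genes at 30 h. Of 11 members and partners of the LDL receptor family, 2 rose and 3 fell at 30 h. LRP8 was at 4.52 ± 0.342 CPM with the inhibitor and 14.5 ± 3.37 CPM with EGF alone (-1.75, edgeR adjusted p = 1.09e-07), LRP3 and LRP6 stood at log2 -1.47, edgeR adjusted p = 1.07e-06, and -0.80, edgeR adjusted p = 0.0155, and LRP11 and LRP10 rose by 0.78, edgeR adjusted p = 2.39e-07, and 0.73, edgeR adjusted p = 1.36e-05. Of 14 Notch pathway genes, 4 rose, LFNG most (1.5, edgeR adjusted p = 9.02e-05), and 2 fell, the ligand JAG1 (-1.45, edgeR adjusted p = 3.33e-08) and the feedback gene NRARP (-2.0, edgeR adjusted p = 0.00188). Of 19 genes around VAV3 and its GTPases, 2 rose, RHOB most (1.44, edgeR adjusted p = 4.06e-05), and 5 fell, RAC2 (-1.5, edgeR adjusted p = 1.79e-09) and ARHGEF2 (-1.22, edgeR adjusted p = 2.04e-08) most. Of 11 carbonic anhydrases and bicarbonate transporters 4 fell at 30 h, among them CA12 at -0.51, edgeR adjusted p = 0.0287 and SLC4A2 at -0.44, edgeR adjusted p = 0.0119.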

How the data were processed

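The deposited tables hold raw UMI counts per gene and cell, and whole numbers from 0 were found in both. Per the submitters' processing notes, Cell Ranger 3.0.2, Seurat and genome build GRCh38 were used, and the sources used here do not give the annotation release, the cell filter or the tag rule. Conditions came from the deposited tag tables. Per the series' design text each library is 1 biological replicate.

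For each condition of a library the UMI counts of its cells were added up. The 16 resulting columns entered 1 quasi-likelihood model (edgeR 4.0.16, limma 3.58.1, R 4.3.3) after filterByExpr and TMM, with the library as a block and 7 residual degrees of freedom. Adjusted p is Benjamini-Hochberg over 11147 genes, with a threshold of 0.05. A CPM value is a count scaled to a common total by TMM, and ± is the SD over 2 libraries for a level and the SE for a log2 change. All 10 genes passed the filter, and NEURL1B and PIF1 had under 3 UMIs in 6 and 8 of the 16 sums. The block was checked on 4702 genes. Deviations from the condition means correlated between conditions of a library with a median r of 0.588 (0.281 to 0.677 over 28 pairs).

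Shares of cells came from cells thinned to 3000 UMIs, and phases from scanpy 1.11.5 scores. DESeq2 1.42.0, library totals, no filter, no block, thinned cells and leaving out each sum were the alternatives. The fit was also run on simulated data with the same dispersion for every gene and no library effect. Those data lack the correlation within a library seen here, so that run does not check the block. Named genes were the 10, the genes most correlated with them, their paralogs and up to 3 called genes per list with the largest change. A few genes that this rule names are not reported here. The 10 genes and all lists were chosen with earlier results of these data known. The PI3K inhibitor comparisons had been planned as tests, and are given as values because those samples may have entered the choice. Promoters are from RefSeq (GRCh38.p14), and protein sequences were not used here.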

Additional observations from a re-analysis of the deposited data

Results flagged for a closer look

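For 2 of the 10 genes the difference between the PI3K inhibitor and EGF alone had opposite signs at 20 h and 30 h in both libraries. PCDH9, the protocadherin, had a mean log2 difference of the libraries of 0.198 at 20 h and -0.336 at 30 h. VAV3, the exchange factor, had a mean of 0.246 at 20 h and -1.4 at 30 h, with 0.10 and 0.39 in libraries 1 and 2 at 20 h. The library 1 values at 20 h were thus small for both genes. The difference between the times was not tested for either gene, and such changes of sign were not counted over all genes.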

How the results depend on the processing

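For 15 h of EGF against unstimulated cells, 7 of the 10 genes were called, 4 with thinned cells and 3 to 7 with 1 sum left out. The 3116 genes called over all became 1358 with thinned cells and 502 to 3112 with 1 sum left out. Without the replicate block they were 1876, and 6 of the 10 genes passed, NEURL1B being lost. The fitted log2 change of NEURL1B ran from -7.25 to 4.03 with 1 sum left out, reversed at 4.03 without the unstimulated cells of library 1, and library 2 has 0 UMIs of it in either condition. The cause of the other shifts was not tested. With the MEK inhibitor at 20 h the 1332 genes called against EGF alone became 306 with thinned cells, 779 in DESeq2, 342 without the replicate block and 522 to 969 with 1 sum left out. At 30 h the 4215 became 1679 with thinned cells, 2136 without the replicate block and 2654 to 3393 with 1 sum left out. The 18 related genes at 20 h became 4 with thinned cells, 9 in DESeq2, 4 without the block and 9 to 14 with 1 sum left out, and the 55 at 30 h became 22, 34, 28 and 33 to 45. The block is the library, in which all conditions were pooled, and leaving it out changed no other call among the 10 genes in the comparison of 15 h with 0 h. In the untested MEK inhibitor comparison at 20 h it widened the SE to 0.60 for CA2, 0.79 for BEST2 and 0.48 for IGFL2-AS1, against 0.21, 0.51 and 0.25 with the block. Within phases the number of genes higher with the inhibitor was the same under both other ways of calling phases, but not which genes, since with unthinned calls CA2 replaced PIF1 as an exception in G1 cells. At 6500 UMIs per cell and unthinned, 9 of the 10 genes had a higher share with the MEK inhibitor. Thinning removes UMIs, and unstimulated cells of library 2 held 213216 UMIs in all, which limits every comparison with them.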
